A study of Homo sapiens with 32 samples.

Results

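The hypoxia-inducible factor (HIF) subunits and their oxygen sensors were examined for RNA N6-methyladenosine (m6A) peaks in 2 kidney cell lines. The set held 9 genes, chosen by name for their place in the HIF system, by a rule that uses no measured value but was set with earlier results of these data known: HIF1A, EPAS1, ARNT, ARNT2, HIF1AN, EGLN1, EGLN2, EGLN3 and CITED2. A peak belonged to a gene if it overlapped the gene body, from the annotated start to the annotated end, by at least 1 bp. All 9 genes had a peak in at least 1 library, out of 13418 protein-coding genes with a peak and 20033 in the gene table, and they held 306 of the 474004 peaks in the lists. m6A was mapped by MeRIP-seq, in which an antibody pulls down RNA fragments that carry the mark and the immunoprecipitated (IP) fraction is compared with the Input. The cells were 786-O, a clear cell renal cell carcinoma (ccRCC) line, and RPTEC, an hTERT-immortalized line from the renal proximal tubule that stood in for normal kidney. Each cell line had 4 groups of 2 IP libraries: the WT parent, 2 CRISPR clones (SETD2KO-1, SETD2KO-2), and as the rescue SETD2KO-1R, a clonal line made from SETD2KO-1 by adding back full-length FLAG-tagged SETD2. The labels give no treatment for any group. WT and SETD2KO-1R together are called SETD2-expressing, which gave 4 SETD2KO and 4 SETD2-expressing libraries per cell line. Each knockout or rescue line was 1 clone and nothing stated that its libraries came from separate cultures, so p-values measure the spread between these libraries, which may be technical. The cell lines were grown in different media and their lists carry different experiment tags, so cell line, medium and experiment cannot be told apart.

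HIF is a transcription factor made of an oxygen-regulated alpha subunit, HIF-1alpha (HIF1A) or HIF-2alpha (EPAS1), and a constitutive beta subunit, ARNT or its paralog ARNT2. In oxygen, the prolyl hydroxylases encoded by EGLN1, EGLN2 and EGLN3 mark the alpha subunit for the VHL ubiquitin ligase, the asparaginyl hydroxylase HIF1AN blocks its binding of the coactivators p300 and CBP, and CITED2 competes for the same coactivators. Most ccRCC lack VHL, so HIF stays active in oxygen, and 786-O is a VHL-deficient line that depends on EPAS1 and has no functional HIF1A. SETD2, the enzyme that trimethylates histone H3 at lysine 36 and is often mutated in ccRCC, was the gene that the study knocked out in both cell lines to ask whether it changes where m6A lies.

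Each list gives called peaks with a position, a whole-number score whose scale is not stated, and no read counts. The score was therefore used only as a percentile rank within its list, where 100 is the highest score, and a gene without a peak was given rank 0. The depth behind a peak is unknown. A missing peak shows neither that the RNA is unmethylated nor that the gene is silent, and in bulk RNA a lower transcript level and less m6A per transcript cannot be told apart from the peak lists. The lists held 25710 to 39670 peaks in 786-O and 19249 to 31207 in RPTEC, a mean difference of 6385 peaks (two-sided exact permutation test, p = 0.00917, n = 8 libraries each). SETD2KO minus SETD2-expressing lists differed by 2814 peaks in 786-O (exact p = 0.4, n = 4 each) and by -2497 in RPTEC (exact p = 0.429). Of 12 kidney epithelium markers, 8 had a peak in each cell line, with PAX8 among them. CDH1, LRP2 and AQP1 had none in either, EPCAM none in 786-O and CUBN none in RPTEC. Of 4 endothelial markers, none had a peak in 786-O and CDH5 alone had one in RPTEC, of 4 leukocyte markers CD68 alone had one, in both, and of 3 fibroblast markers LUM and PDGFRB had one in both. SETD2 itself, the targeted gene, held 8, 10, 5, 10, 5, 4, 7 and 9 peaks in 786-O and 7, 10, 6, 4, 4, 5, 11 and 10 in RPTEC, read from the WT pair through SETD2KO-1 and SETD2KO-2 to the SETD2KO-1R pair, replicate 1 first in each. SETD2KO and SETD2-expressing libraries did not overlap in RPTEC, where 1.41% of all genes tested were separated the same way, and overlapped in 786-O. A peak count in the transcript is no check of the knockout.

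Calls at the annotated start were frequent for EPAS1 and rare for HIF1A, and the start sequences are shown first. The windows below run 5′ to 3′ along each gene's strand from 160 bases before the annotated start to 30 bases from it, and come from RefSeq on GRCh38.p14. Capitals mark GGAC, a core of the m6A consensus, and ACGTG, the core of the hypoxia response element, on either strand (ACGTG or CACGT). The first start window is shown for each of the 6 genes in which a called peak reached it.

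HIF1A (chr14:61695353-61695542, plus strand): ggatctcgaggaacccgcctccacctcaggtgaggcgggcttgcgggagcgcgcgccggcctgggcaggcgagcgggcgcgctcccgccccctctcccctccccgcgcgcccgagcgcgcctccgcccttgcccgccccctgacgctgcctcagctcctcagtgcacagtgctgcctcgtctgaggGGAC
EPAS1 (chr2:46297247-46297436, plus strand): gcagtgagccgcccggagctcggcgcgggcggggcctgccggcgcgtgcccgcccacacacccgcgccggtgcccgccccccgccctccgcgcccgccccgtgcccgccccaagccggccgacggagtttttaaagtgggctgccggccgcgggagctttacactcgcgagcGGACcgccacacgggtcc
HIF1AN (chr10:100535783-100535972, plus strand): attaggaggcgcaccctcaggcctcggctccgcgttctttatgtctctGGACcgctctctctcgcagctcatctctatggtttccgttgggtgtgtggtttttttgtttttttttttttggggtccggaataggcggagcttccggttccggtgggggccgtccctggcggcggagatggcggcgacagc
EGLN1 (chr1:231422258-231422447, minus strand): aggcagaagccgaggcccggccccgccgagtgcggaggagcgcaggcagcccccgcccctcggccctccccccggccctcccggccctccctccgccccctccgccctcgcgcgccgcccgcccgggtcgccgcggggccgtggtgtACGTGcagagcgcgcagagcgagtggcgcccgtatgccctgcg
EGLN3 (chr14:33951045-33951234, minus strand): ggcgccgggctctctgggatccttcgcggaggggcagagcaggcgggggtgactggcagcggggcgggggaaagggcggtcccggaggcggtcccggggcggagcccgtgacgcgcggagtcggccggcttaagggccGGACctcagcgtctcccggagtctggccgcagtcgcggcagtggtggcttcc
CITED2 (chr6:139374619-139374808, minus strand): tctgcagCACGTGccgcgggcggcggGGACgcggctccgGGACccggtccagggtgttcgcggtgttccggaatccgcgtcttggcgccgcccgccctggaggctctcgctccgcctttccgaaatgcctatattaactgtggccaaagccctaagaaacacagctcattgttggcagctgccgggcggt

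The EPAS1 window was overlapped by a peak in 11 of 16 libraries, and the first HIF1A window in 2. The 2 HIF1A calls were both in RPTEC SETD2KO libraries, and no 786-O library called the HIF1A start. Among 10959 genes with a peak and a stored window, 7.98% had calls at the window in at least 11 libraries, and 43% in at least 1. The HIF1AN window had calls in 11 libraries, the CITED2 window in 12, the EGLN1 window in 10 and the EGLN3 window in 7, of which 6 were 786-O libraries. No library called a peak in the window of ARNT, the second window of HIF1A or either start window of EGLN2. ARNT2 was not among the stored windows. The merged start regions of EPAS1, HIF1AN, EGLN1, HIF1A and EGLN3 began 129, 132, 135, 138 and 149 bases before the annotated start, in the same order, so the called intervals reach past the annotated transcript. GGAC lay at position 13 of the EPAS1 transcript and at position 27 of HIF1A, counted from the annotated start, and upstream of the start in HIF1AN, EGLN3 and CITED2. ACGTG lay in the windows of EGLN1 and CITED2. Of the windows that no library called, the first of EGLN2 holds ACGTG and the second GGAC, both upstream of the start. The ARNT window and the second HIF1A window (chr14:61697552-61697741) hold neither. GGAC occurs in 50.4% of all 35116 stored windows cut to this length and ACGTG in 15.1%, so a match is a description of these letters only.

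HIF1A, EPAS1, EGLN1 and EGLN2 had a peak in all 16 libraries, as had 34.5% of the genes tested. HIF1AN and CITED2 had one in 15, ARNT in 13, ARNT2 in 10 and EGLN3 in 9. A library called 12 to 25 peaks over the 9 genes and left at most 3 of them without a peak. ARNT2 and EGLN3 had opposite patterns: ARNT2 had peaks in 3 of 8 libraries of 786-O and 7 of 8 of RPTEC, EGLN3 in 7 of 8 and 2 of 8. Between 786-O and RPTEC, 0 of the 9 genes differed in peaks per library at an adjusted p of 0.05 (two-sided exact permutation test over libraries, Benjamini-Hochberg over 13418 genes), where 5.36% of all genes did. Both ARNT2 and EGLN3 passed 0.05 before adjustment, as did 18.1% of all genes. The median difference was 0 peaks over the 9 genes and 0.25 over all genes.

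**Figure D1:**
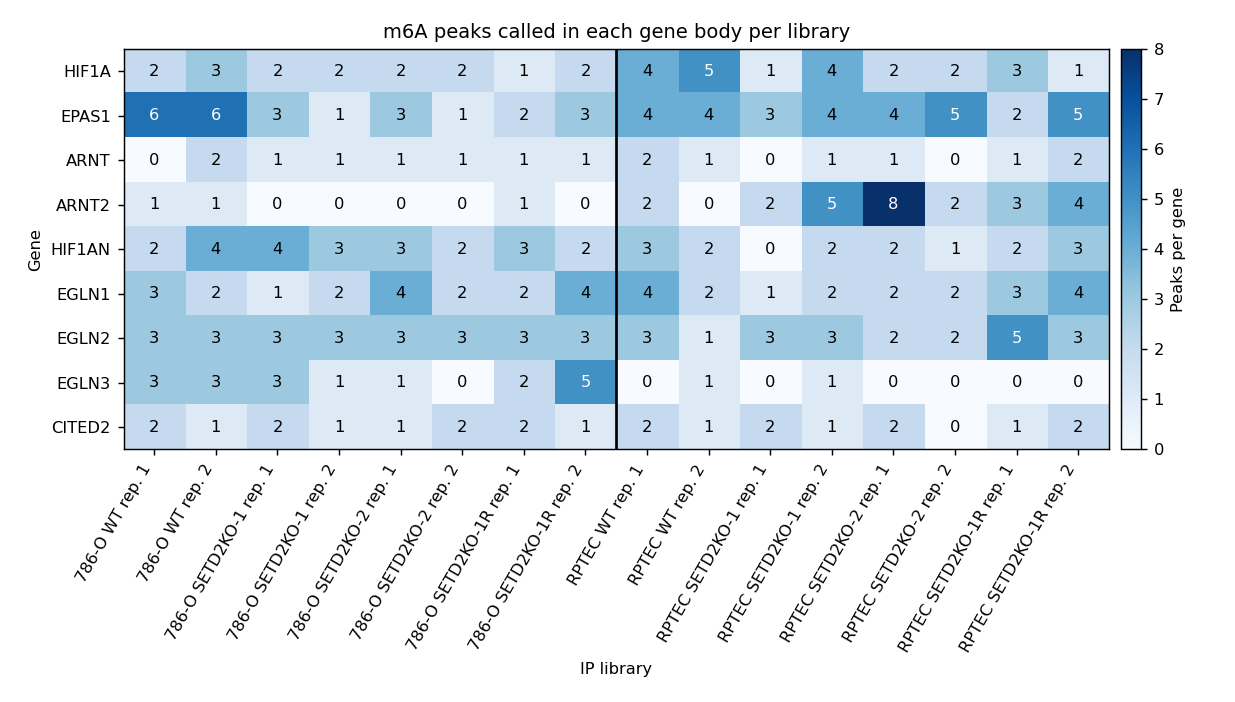
Number of called m6A peaks in each of the 9 gene bodies (rows) in each IP library (columns, 786-O left of the line and RPTEC right of it), with the count printed in each cell and shaded from 0 to 8. EPAS1 has 6 peaks in both 786-O WT libraries and 1 to 3 in the other 786-O libraries, and EGLN3 has at most 1 peak in any RPTEC library.

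EPAS1, the alpha subunit on which 786-O depends, lies on chr2:46297407-46386697 on the plus strand. It had 6 and 6 peaks in the 786-O WT libraries, 3 and 1 in SETD2KO-1, 3 and 1 in SETD2KO-2, and 2 and 3 in SETD2KO-1R. In RPTEC the counts were 4 and 4 in WT, 3 and 4 in SETD2KO-1, 4 and 5 in SETD2KO-2, and 2 and 5 in SETD2KO-1R. The 786-O WT libraries lay above every other library of either cell line, and the 3 clonal lines of 786-O lay together below them, rescue included. The split was seen in the counts, and the share of all genes split this way is not given. It therefore cannot be called particular to EPAS1. The means of 3.13 ± 1.96 peaks in 786-O and 3.88 ± 0.991 in RPTEC (SD, n = 8 libraries each) overlapped widely, with a difference of -0.75 (exact permutation p = 0.431, adjusted p = 0.824). With 1 library left out it ran from -1.16, without either 786-O WT library, to -0.446, without replicate 2 of SETD2KO-1 or SETD2KO-2 of 786-O. In the WT libraries alone the direction turned, to 2 peaks more in 786-O (exact p = 0.333, the smallest that 2 against 2 libraries allow).

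The recurrent EPAS1 peaks lay at the same 4 places in both cell lines. The interval at 49.2 to 49.5 kb from the start (chr2:46346593-46346929) was called in 12 libraries, 5 of 786-O and 7 of RPTEC, and its ranks of 91.9 to 98.9 put it among the highest peaks of every list that held it. The interval at 82.4 to 83.0 kb (chr2:46379758-46380399) was called in 14 libraries, 7 of each cell line, with ranks of 59.1 to 96.5. The interval at 86.9 to 87.2 kb, near the annotated end of the gene, was called in 11 libraries with ranks of 18.0 to 91.1. The start region was called in 4 libraries of 786-O and 7 of RPTEC and ranked low, from 3.34 to 45.3. The median ranks over all calling libraries were 96.5 at 49.2 kb, 86.7 at 82.4 kb, 56.7 at 86.9 kb and 15.4 at the start. Both 786-O WT libraries called all 4 of these intervals, and the other 786-O libraries 0 to 3 of them. They also shared calls at 1.63 to 2.29 kb that no other library made, with ranks of 15.3 and 10.2, and had 1 further low-ranked call each. SETD2KO-1 replicate 2 of 786-O called none of the recurrent intervals and only 1 peak at 36.0 kb, with rank 28.6.

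HIF1A, the alpha subunit without function in 786-O, lies on chr14:61695513-61748258 on the plus strand and overlaps the antisense genes HIF1A-AS1, HIF1A-AS2 and HIF1A-AS3. The lists carry no strand, so peaks in the overlapped stretches cannot be assigned to HIF1A or to an antisense gene. It had 2 and 3 peaks in 786-O WT, 2 and 2 in SETD2KO-1, 2 and 2 in SETD2KO-2, and 1 and 2 in SETD2KO-1R. In RPTEC it had 4 and 5 in WT, 1 and 4 in SETD2KO-1, 2 and 2 in SETD2KO-2, and 3 and 1 in SETD2KO-1R. RPTEC libraries spread over 1 to 5 and took in the whole range of 786-O, and the difference of -0.75 did not pass (exact permutation p = 0.287, adjusted p = 0.667, n = 8 each). With 1 library left out it ran from -1 to -0.429, the latter without RPTEC WT replicate 2. Called peaks thus overlapped HIF1A in every 786-O library. One interval, at 16.3 to 16.9 kb from the start (chr14:61711840-61712368), was called in all 16 libraries with ranks of 34.3 to 77.6. This interval overlaps none of the antisense genes. Over all merged regions of the series, 4.24% were called in all 16. The other recurrent interval, at 45.1 to 45.6 kb (chr14:61740650-61741069), was called in 7 libraries of 786-O and 2 of RPTEC, which passed before adjustment but not over all regions (exact permutation p = 0.0406, adjusted p = 1). That interval lies in HIF1A-AS3, from which its calls cannot be separated. Of the remaining 9 HIF1A intervals, 8 were called in RPTEC alone, each in 1 or 2 libraries. Some of these calls ranked high: 89.5 and 94.5 at the start, and 96.7 at 49.7 kb in WT replicate 2. At 42.2 kb the ranks were 32.5 and 81.8, and the other RPTEC-only calls ran from 0.455 to 60.8. The start region overlaps HIF1A-AS1, and the intervals at 42.2 and 49.7 kb overlap HIF1A-AS3.

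**Figure D2:**
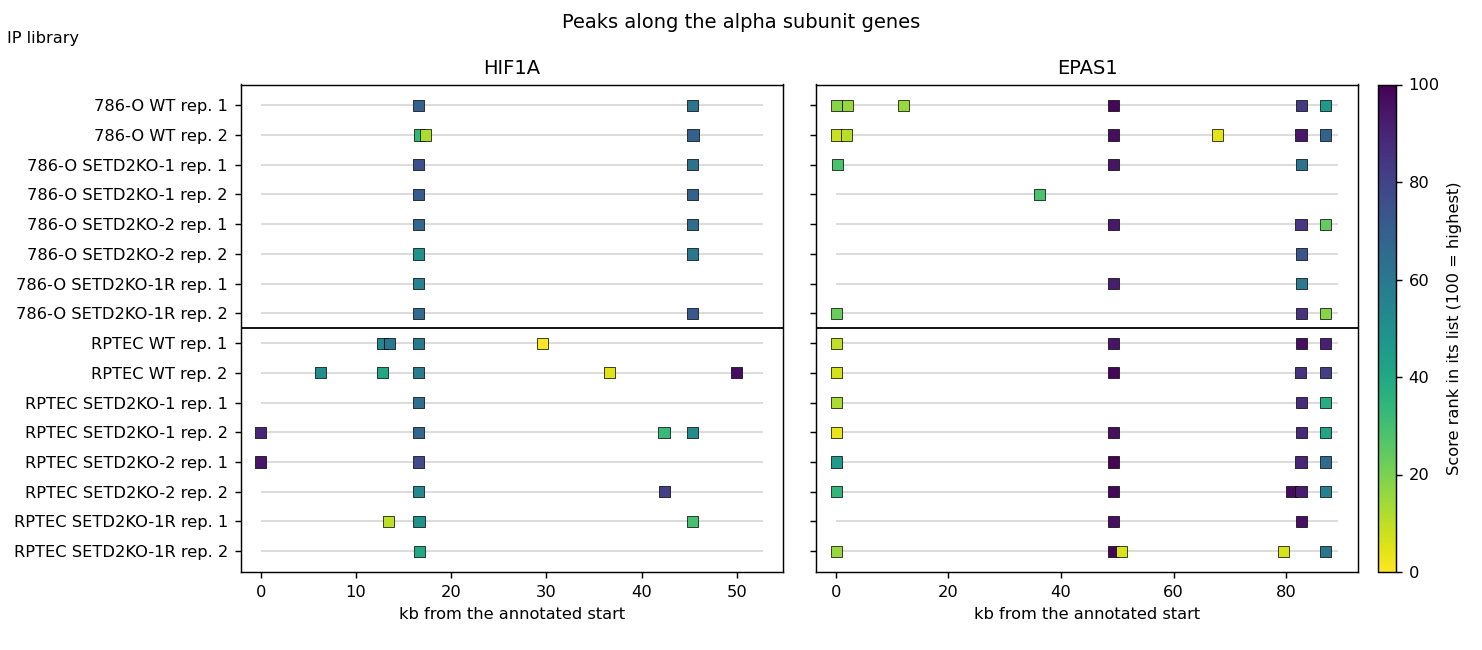
Peaks of HIF1A and EPAS1 by library (rows, 786-O above the line and RPTEC below it) against distance of the peak midpoint from the annotated start in kb. Each square is 1 peak, coloured by the rank of its score in its own list, and a column at 16.3 to 16.9 kb of HIF1A is filled in all 16 libraries while the interior EPAS1 column at 49.2 kb carries the darkest squares.

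Over the 16 libraries, the peak counts most like those of EPAS1 were those of ARMC10 (Spearman rho 0.803), GSAP (0.759) and PTPN9 (0.747), and those most like HIF1A were VAMP3 (0.834), RNF7 (0.819) and KIF13A (0.819). These are the 3 highest of 11572 genes for each, over points that share cell lines and list sizes, and are given as a description.

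ARNT, the common partner of both alpha subunits, lies on chr1:150809713-150876599 on the minus strand and had 0 to 2 peaks in every library, with a mean of 1 ± 0.535 in 786-O and 1 ± 0.756 in RPTEC (SD, n = 8 each). Its best peak had a mean rank of 22.3 in 786-O and 25.9 in RPTEC, below every other member in RPTEC but EGLN3. Its calls lay at 25.7 to 26.5 kb from the start in 7 libraries and at 38.8 to 39.4 kb in 6. The other 3 intervals, at 36.7, 37.8 and 64.1 kb, were each called in 1 library of 786-O, and the first of them, in WT replicate 2, had the highest rank of any ARNT peak, 69.8. No library called its start window.

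ARNT2, the paralog best known from neural tissue, lies on chr15:80404382-80597933. In 786-O it had 1 and 1 peaks in WT, 0 in all 4 SETD2KO libraries, and 1 and 0 in SETD2KO-1R. In RPTEC it had 2 and 0 in WT, 2 and 5 in SETD2KO-1, 8 and 2 in SETD2KO-2, and 3 and 4 in SETD2KO-1R. The ranges met only because RPTEC WT replicate 2 held no peak. The means were 0.375 ± 0.518 in 786-O and 3.25 ± 2.43 in RPTEC (SD, n = 8 each), a difference of -2.88 that missed the threshold over all genes (exact permutation p = 0.0028, adjusted p = 0.0514). In the same exact permutation test it passed when peaks were counted per 10000 peaks of the list (-1.08, adjusted p = 0.0252), a scale on which 1 of the 9 members and 7.02% of all genes passed, and when 786-O WT replicate 1 or RPTEC WT replicate 2 was left out (-2.96 and -3.34). The ARNT2 peaks were spread out: 10 of its 11 intervals were called in RPTEC alone, in 1 to 4 libraries each. The interval shared by the cell lines lay 189.0 to 190.0 kb from the lower-coordinate end (chr15:80593417-80594363), since no strand was given for this gene, and was called in 3 libraries of 786-O, all SETD2-expressing, and in 6 of RPTEC, 4 of them SETD2KO. ARNT2 overlaps ARNT2-AS1, ARNT2-AS3 and MIR5572. Of its intervals, only that at 179.8 kb, called in 1 library, overlaps one of these genes, ARNT2-AS1, from which it cannot be separated.

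**Figure D3:**
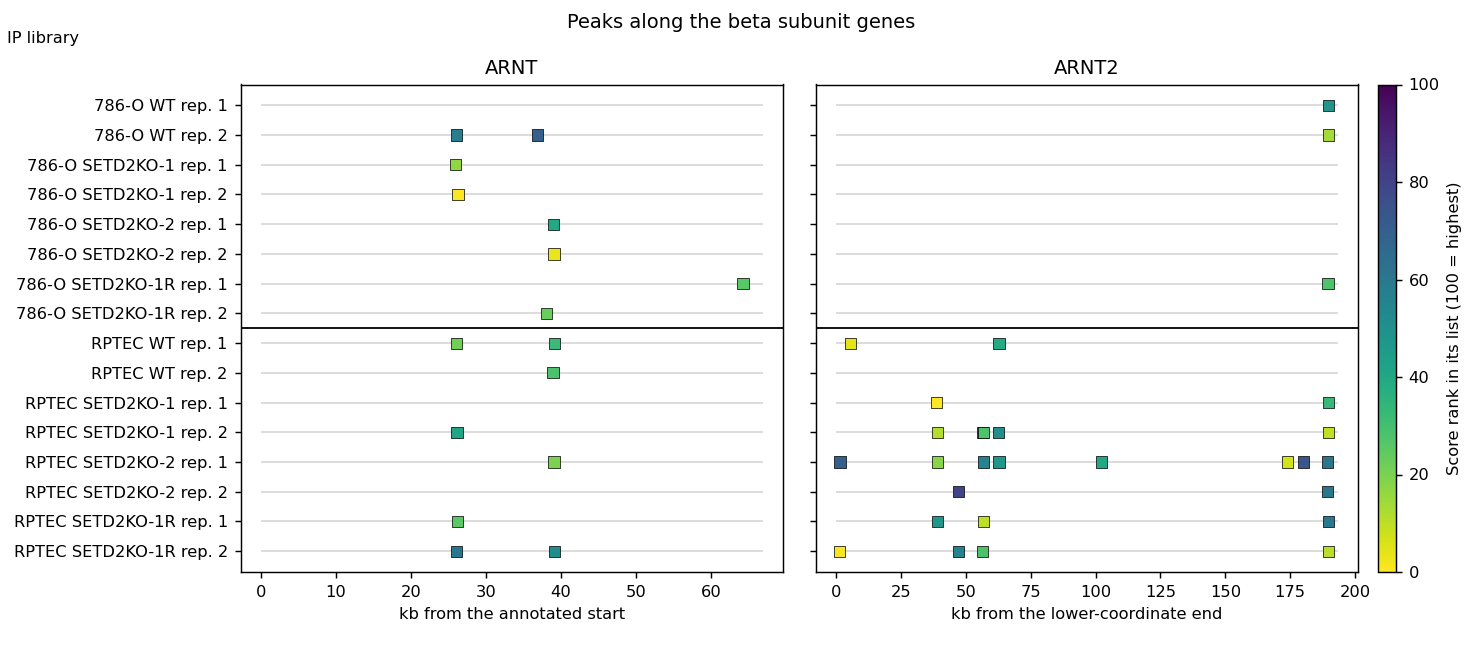
Peaks of ARNT and ARNT2 by library against distance in kb, from the annotated start for ARNT and from the lower-coordinate end for ARNT2, whose strand was not given. Squares are coloured by rank in the list, and the 786-O rows of ARNT2 hold squares only at 189.0 to 190.0 kb, in 3 libraries.

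EGLN2, a HIF prolyl hydroxylase, lies on chr19:40799191-40808434 on the plus strand inside the readthrough locus RAB4B-EGLN2. It had 3 peaks in every 786-O library and 3, 1, 3, 3, 2, 2, 5 and 3 in RPTEC in the same library order as SETD2. Its interval at 0.605 to 2.53 kb from the start (chr19:40799796-40801718) was called in all 16 libraries with ranks of 65.5 to 92.0, and its intervals at 4.39 to 5.32 kb and 8.48 to 9.18 kb in 12 libraries each. The difference of 0.25 peaks between cell lines was within the spread of RPTEC (exact permutation p = 0.754, adjusted p = 1), and per 10000 peaks of the list it turned to -0.0971.

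EGLN1, the main HIF prolyl hydroxylase in most tissues, lies on chr1:231363756-231422287 on the minus strand. It had 1, 2 and 4 peaks as its lowest, median and highest count in each cell line, and the same mean of 2.5 ± 1.07 (SD, n = 8 each). Peaks lay at its start in 13 libraries, between -0.135 and 1.10 kb (chr1:231421191-231422422), and at 55.6 to 56.0 kb in 12, where the gene overlaps LOC107985360 and the lists cannot separate the genes. Its start region ranked from 11.9 to 81.8, and its highest rank was that of 786-O SETD2KO-1R replicate 2.

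EGLN3, the hydroxylase that is itself strongly induced by HIF, lies on chr14:33924227-33951074 on the minus strand and had 18 of its 20 peaks in 786-O libraries. It had 3 and 3 peaks in 786-O WT, 3 and 1 in SETD2KO-1, 1 and 0 in SETD2KO-2, and 2 and 5 in SETD2KO-1R. In RPTEC it had 1 peak in WT replicate 2, 1 in SETD2KO-1 replicate 2 and 0 in the other 6 libraries. The counts overlapped only through 786-O libraries with 0 or 1 peak, 3 of them, all SETD2KO. The means were 2.25 ± 1.58 and 0.25 ± 0.463 peaks (SD, n = 8 each), a difference of 2 that did not pass over all genes (exact permutation p = 0.0073, adjusted p = 0.0843) and passed without 786-O SETD2KO-2 replicate 2 (2.32, adjusted p = 0.0256). By covered length, 1188 bp of the gene lay under peaks in 786-O and 110 bp in RPTEC, a difference of 1078 bp that passed (exact permutation p = 0.0028, adjusted p = 0.0314). By that measure 11.4% of all genes passed, so 1 call among 9 members is near the background. At its start (-0.149 to 0.552 kb, chr14:33950522-33951223) EGLN3 was called in 6 libraries of 786-O and 1 of RPTEC (exact p = 0.0406, adjusted p = 1). At 0.802 to 1.66 kb it was called in 5 libraries of 786-O and none of RPTEC (exact p = 0.0256, adjusted p = 0.811). At 25.2 to 25.9 kb, near the annotated end, it was called in all 4 SETD2-expressing libraries of 786-O, 1 SETD2KO library of 786-O and 1 of RPTEC.

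**Figure D4:**
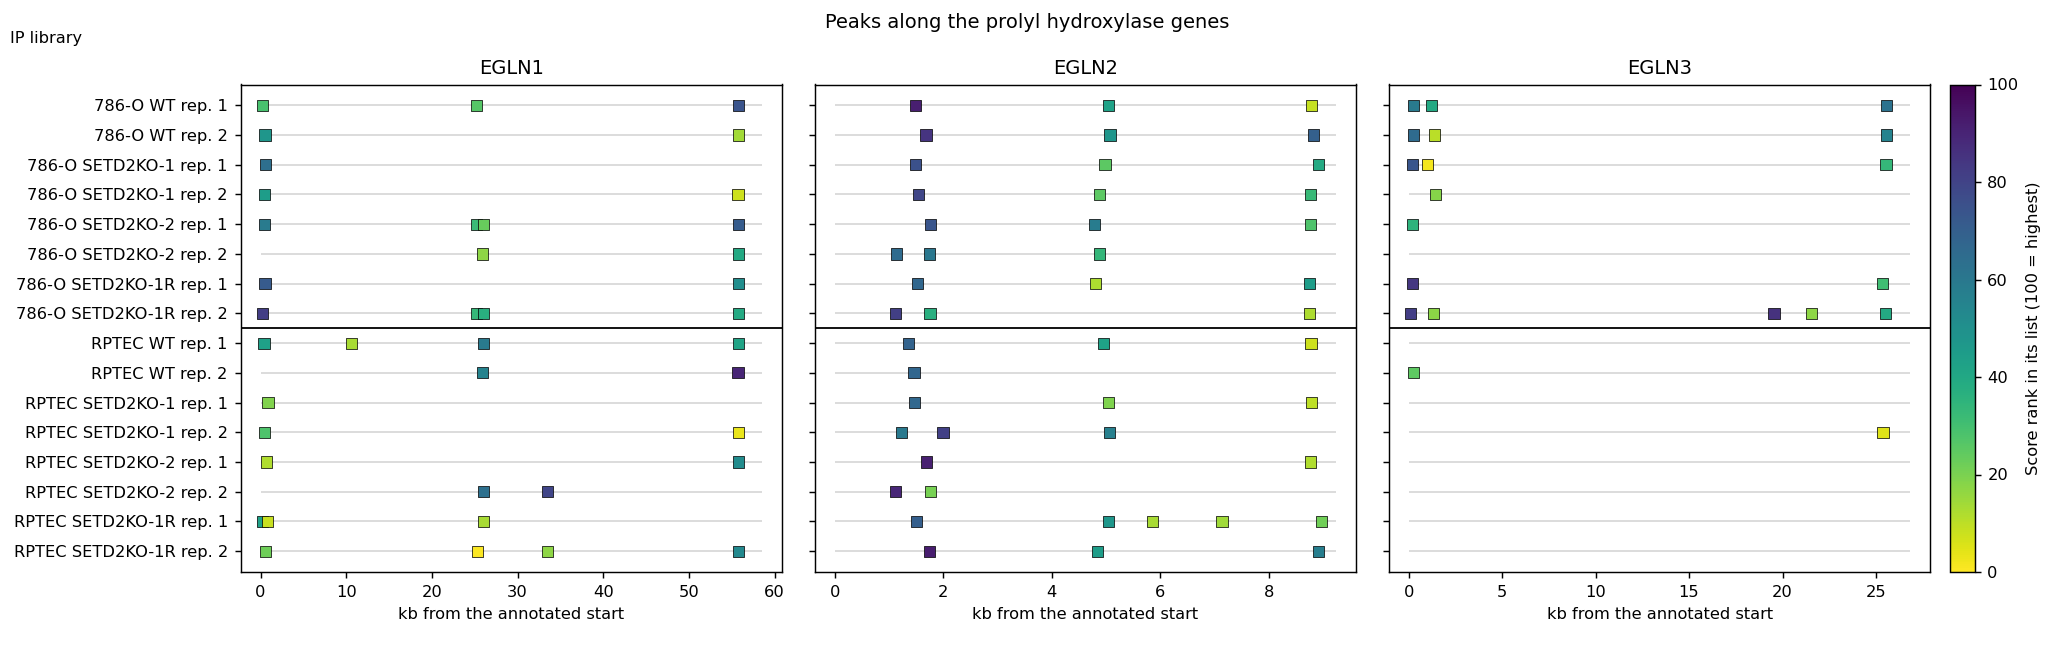
Peaks of EGLN1, EGLN2 and EGLN3 by library against distance of the peak midpoint from the annotated start in kb, coloured by rank in the list. EGLN2 has a square near its start in all 16 libraries, EGLN1 is called at both ends of the gene in both cell lines, and the RPTEC rows of EGLN3 hold 2 squares in all.

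HIF1AN, the asparaginyl hydroxylase also called FIH, lies on chr10:100535943-100559998 on the plus strand. It had 2 and 4 peaks in 786-O WT, 4 and 3 in SETD2KO-1, 3 and 2 in SETD2KO-2, and 3 and 2 in SETD2KO-1R. In RPTEC it had 3 and 2 in WT, 0 and 2 in SETD2KO-1, 2 and 1 in SETD2KO-2, and 2 and 3 in SETD2KO-1R. The mean was 1 peak higher in 786-O, which did not pass (exact permutation p = 0.0841, adjusted p = 0.348). Its start region (-0.132 to 0.539 kb, chr10:100535811-100536482) was called in 11 libraries with ranks of 77.4 to 97.9, against 3.34 to 45.3 at the EPAS1 start in the same number of libraries. In RPTEC the HIF1AN start was called in 4 of 4 SETD2-expressing and 1 of 4 SETD2KO libraries, and in 786-O in 3 of 4 of each.

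CITED2, which competes with the HIF alpha subunits for p300 and CBP, is a short gene on chr6:139371807-139374648 on the minus strand. All its peaks merged into 1 interval, from -0.217 to 1.59 kb (chr6:139373058-139374865), which was called in 15 libraries, all but RPTEC SETD2KO-2 replicate 2, with ranks of 60.8 to 97.9. It had 1 or 2 peaks in each of those libraries. The best CITED2 peak ranked from 85.3 to 97.9 in 786-O, with a median of 92.1. In RPTEC the 7 libraries with a peak ranked from 60.8 to 91.3, with a median of 83.7. Where only peaks with their summit inside the annotated gene were counted, the difference in peaks between the cell lines turned from 0.125 to -0.25.

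By the rank of the best peak, 1 of the 9 genes differed between the cell lines over all genes tested, EGLN3, where 6.28% of genes did. The EGLN3 ranks in 786-O were 62.3 and 65.4 in WT, 73.7 and 18.0 in SETD2KO-1, 35.4 and 0 in SETD2KO-2, and 84.2 and 85.6 in SETD2KO-1R. The RPTEC libraries with a peak stood at 24.8 and 4.69. The mean difference was 49.4 percentile points (exact permutation p = 0.00264, adjusted p = 0.0448). It kept its direction with each of the 16 libraries left out in turn, by 44.7 to 57.0 points. The adjusted p of the exact permutation test was above 0.05 in 12 of those 16 cases, at up to 0.0719. The EGLN3 call was also lost in lists of equal number (43.3 points, exact permutation test, adjusted p = 0.189). The same held in the upper 50% of each list (46.4 points, exact permutation test, adjusted p = 0.205). A block on replicate number lost it too (49.4 points, exact permutation test, adjusted p = 0.0586). The call therefore rests on a narrow margin and depends on these settings. CITED2 (20.5 points higher in 786-O, exact permutation p = 0.00404, adjusted p = 0.0602) and ARNT2 (-37.8 points, exact permutation p = 0.00684, adjusted p = 0.0751) stood just outside the threshold, and CITED2 changed direction when only summits inside the gene were counted, at -2.70. Without RPTEC SETD2KO-2 replicate 2, the library with no CITED2 peak, the CITED2 difference was 10.3 points (exact permutation test, adjusted p = 0.0808). With the block on replicate number CITED2 passed (20.5 points, exact permutation test, adjusted p = 0.0498). CITED2 passed without RPTEC SETD2KO-2 replicate 1 (22.8 points, adjusted p = 0.0428) or RPTEC SETD2KO-1R replicate 1 (23.4 points, adjusted p = 0.0178), and ARNT2 without 786-O WT replicate 1 (-43.0 points, adjusted p = 0.0477) or RPTEC WT replicate 2 (-44.8 points, adjusted p = 0.031), in the same exact permutation test. EPAS1 stood at 82.9 in 786-O and 96.4 in RPTEC (difference -13.4, exact permutation p = 0.0539, adjusted p = 0.256), with the rank of 28.6 in SETD2KO-1 replicate 2 far below the other 786-O libraries, at 73.5 to 98.2, and a difference of -5.69 without it. The other 5 members differed by -4.25 to 16.5 points and none passed before adjustment. The largest of these, HIF1AN, stood at 6.70 points without RPTEC SETD2KO-1 replicate 1, which held no HIF1AN peak.

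**Figure D5:**
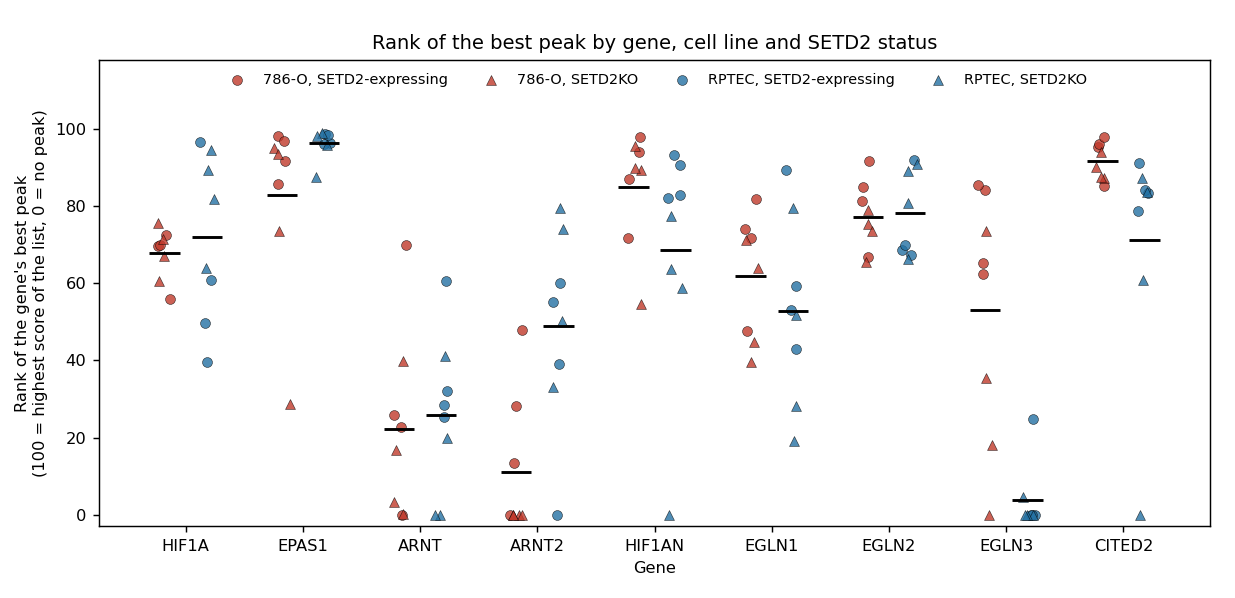
Percentile rank of the best peak of each gene in its list (100 is the highest score, 0 means no peak) for every library, by cell line (colour) and SETD2 status (circles SETD2-expressing, triangles SETD2KO), with bars at the mean of 8 libraries. EGLN3 stands at a mean of 53.1 in 786-O and 3.69 in RPTEC, ARNT2 at 11.2 and 48.9.

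SETD2 status gave no call. In 786-O, in RPTEC and over both cell lines with SETD2 labels permuted within each, 0 of the 9 genes differed in peaks per library, where 0% of all genes did in each comparison (two-sided exact permutation test, Benjamini-Hochberg). The smallest p that 4 against 4 libraries allow is 0.0286, so an adjusted call within a cell line would need most genes to stand at that p. Before adjustment 0 of the 9 genes passed 0.05, against 2.42% of all genes in 786-O, 2.42% in RPTEC and 5.34% over both. None of the 9 had SETD2KO and SETD2-expressing counts that did not overlap in either cell line, where SETD2KO lay above in 1.52% and below in 0.901% of all genes in 786-O, and above in 1.01% and below in 1.41% in RPTEC. For 8 of the 9 the mean over both cell lines was lower in SETD2KO, with differences of -1 to -0.125 peaks, and for ARNT2 it was higher, with a median of -0.5 over the members and 0 over all genes. In 786-O alone 4 were lower and 1 higher, with a median of 0 over the members and over all genes. In RPTEC 6 were lower and 2 higher, with a median of -0.5 against -0.25 over all genes. The share of all genes lower in SETD2KO is not given, and these directions were not tested as a group.

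By peaks per library, the members with the widest SETD2 contrast in 786-O were EPAS1 and EGLN3. EPAS1 had 4.25 ± 2.06 peaks in SETD2-expressing and 2 ± 1.15 in SETD2KO libraries of 786-O (SD, n = 4 each; exact permutation p = 0.171, adjusted p = 1). SETD2-expressing libraries of EPAS1 fell into WT at 6 and 6 and SETD2KO-1R at 2 and 3, and the rescue libraries lay within the SETD2KO range of 1 to 3. Against WT alone the EPAS1 difference was -4 (exact permutation p = 0.0667, the smallest that 2 against 4 libraries allow). The share of all genes that reach that p is not given. In RPTEC the EPAS1 means were 3.75 ± 1.26 and 4 ± 0.816, and the difference between the cell lines in this contrast, -2.5 peaks, did not pass (exact permutation p = 0.16). EGLN3 had 3.25 ± 1.26 peaks in SETD2-expressing and 1.25 ± 1.26 in SETD2KO libraries of 786-O (exact permutation p = 0.114, adjusted p = 1), and here the rescue libraries at 2 and 5 stood with WT at 3 and 3. By rank, EGLN3 averaged 74.4 in SETD2-expressing and 31.8 in SETD2KO libraries of 786-O (exact permutation p = 0.0857, adjusted p = 0.811).

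In RPTEC the widest SETD2 contrast in rank was that of HIF1AN. Its best peak stood at 82.9 and 90.8 in WT and 82.0 and 93.3 in SETD2KO-1R, and at 0 and 77.4 in SETD2KO-1 and 63.7 and 58.7 in SETD2KO-2. All 4 SETD2KO libraries of RPTEC lay below all 4 SETD2-expressing ones, by a mean of -37.3 points (exact permutation p = 0.0286, adjusted p = 0.7), and 2.09% of genes tested in RPTEC were separated the same way. Without SETD2KO-1 replicate 1, the library with no peak, the difference was -20.6 points. In 786-O the groups overlapped, at means of 82.5 and 87.7. Over both cell lines the best peaks of HIF1AN (-21.3 points, exact permutation p = 0.0416, adjusted p = 0.566) and EGLN3 (-23.8 points, exact permutation p = 0.0429, adjusted p = 0.571) ranked lower in SETD2KO before adjustment, as 8.06% of all genes differed in either direction, and no gene passed after it. The HIF1AN difference over both was -13.0 without RPTEC SETD2KO-1 replicate 1 (exact permutation p = 0.0682) and the EGLN3 difference -18.5 without 786-O SETD2KO-2 replicate 2 (exact permutation p = 0.0633). ARNT2 went in opposite directions in the cell lines, 0 against 0.75 peaks in 786-O and 4.25 against 2.25 in RPTEC for SETD2KO against SETD2-expressing, and the difference of -2.75 between them did not pass (exact permutation p = 0.165). RPTEC SETD2KO-2 replicate 1 held 8 of the ARNT2 peaks, and without it the RPTEC difference fell from 2 to 0.75 peaks and that over both cell lines to 0.

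By position, the peaks of the 9 genes merged into 61 regions of the 99514 in the series. Of these, 25 were called in 1 library, against 37.2% of all regions, and 2 in all 16 libraries, in HIF1A and EGLN2. In 786-O alone 13 were called and in RPTEC alone 26, against 33.8% and 21.6% of all regions, and 10 of those 26 lay in ARNT2 and 8 in HIF1A. None of the 61 differed in calls between the cell lines over all regions (exact permutation test, Benjamini-Hochberg), where 0.327% of regions did. The HIF1A interval at 45.1 kb and the EGLN3 intervals at the start and at 0.802 kb were the only 3 below 0.05 before adjustment, as were 3.97% of all regions, so 3 of 61 is near the background. None was called in all 4 libraries of one SETD2 status and none of the other within a cell line, against 0.478% of regions in SETD2KO alone and 0.15% in SETD2-expressing libraries alone for 786-O, and 0.282% and 0.214% for RPTEC. The nearest to such a split, 1 library short of it, were EGLN3 at 25.2 kb in 786-O and the HIF1AN start in RPTEC, each in 4 of 4 SETD2-expressing and 1 of 4 SETD2KO libraries, and ARNT2 at 189.0 kb in 786-O, in 3 of 4 and none (exact permutation p = 0.143 for each). Member peaks were like other peaks in size and score, with a median length of 380 bp against 395 bp over all peaks and a median rank of 52.9, where the middle of a list is near 50.

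Around the 9 genes, 17 other genes of the HIF system were examined, of which 15 had a peak and HIF3A and CITED1 had none. Of the 15, 1 differed in peaks between the cell lines over all genes: CITED4, a CITED2 relative that also binds p300 and CBP, had 1 peak in each of the 8 RPTEC libraries and none in any 786-O library (exact permutation p = 0.000155, the smallest possible, adjusted p = 0.00831). Over all genes, 1.92% passed in that direction and 0.946% had groups that did not overlap in it. The elongin genes ELOB and ELOC, partners of VHL in the ubiquitin ligase, had more peaks in 786-O before adjustment, with means of 1.13 against 0.125 (exact permutation p = 0.00761, adjusted p = 0.0859) and 1.63 against 0.5 (exact permutation p = 0.0241, adjusted p = 0.178). Together with CITED4 they made 3 of 15 below 0.05 before adjustment, near the 18.1% of all genes. VHL had a mean of 1.38 peaks in each cell line. By rank of the best peak 3 of the 15 passed between the cell lines, where 6.28% of all genes did. CITED4 stood at 0 in 786-O and 58.3 in RPTEC, and ELOC at 54.6 and 4.91 (exact permutation test, adjusted p = 0.00719 for both). CREBBP, which encodes CBP, stood at 96.3 and 82.5 (exact permutation test, adjusted p = 0.0477). By SETD2 status none of the 15 passed over all genes by peaks or by rank. CREBBP had SETD2KO counts that lay below the SETD2-expressing ones in RPTEC, with means of 4.75 and 8 (exact permutation p = 0.0286, adjusted p = 1), where 1.41% of genes were separated in that direction. In 786-O its means were 8.25 and 6.5, the opposite direction (exact permutation p = 0.143), and the difference between the cell lines in this contrast was 5 peaks (exact permutation p = 0.00286, adjusted p = 1).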

How the data were processed

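m6A was measured by MeRIP-seq in 16 IP libraries, 2 per line. Per the paper's methods and the labels, STAR was the aligner and HTSeq the counter that the authors used. E. coli RNA added to each sample set the scaling, and MACS2 compared each IP library with its Input to give peaks at a q-value of 0.05. The 16 Input samples were not used here. The deposited lists give each peak a whole-number score of unstated scale, used only as a rank, and a summit position in bp from the peak start. Other value columns are 0 throughout. Per the labels the build was hg38. Clones were taken from sample titles.

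Peaks were joined to RefSeq gene bodies of GRCh38.p14, which carry no exons. Strand and starts came from the stored promoter windows. Every gene with a peak was tested by a two-sided exact permutation test over libraries (12870 arrangements for 8 against 8, 70 for 4 against 4, 4900 within both cell lines), with Benjamini-Hochberg adjustment over all genes, called at 0.05. Regions were peaks of the 16 lists merged where they overlapped. The genes named are the 9 members, 17 further HIF genes, SETD2, the 3 genes most like EPAS1 and HIF1A, and the intervals called in all libraries or split completely. Other intervals were named after their values were seen. The members and lists were chosen with earlier results of these data known. No count model could be used, since no read counts were in the lists. The test was checked on simulated peak counts in designs of 8 against 8 libraries only. Changes were planted in genes with higher mean counts than any member has. Whether changes at counts as low as the members' are found was not checked, nor were 4 against 4 tests. Alternatives were the same number of peaks per library, the upper 50% of each list, peaks per 10000, covered bp, summits, peaks within 100 bp counted as 1, bins of 200 bp, overlap by 50% of the shorter peak, single clones, WT alone, leaving out each library in turn, and a block on replicate number. Replicate numbers were checked as pairs: 6 of 28 pairs of groups had a correlation of deviations above 0.1 (-0.341 to 0.309), so they were not taken as pairs. The scripts ran under Python 3.11.15 with SciPy 1.17.1 and NumPy 2.4.6 for the tests, pandas 2.3.3 for tables and Matplotlib 3.10.9 for plots.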

Additional observations from a re-analysis of the deposited data

Results flagged for a closer look

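For each member, the library farthest from the rest was examined by its gap relative to the range. This was done in the 8 libraries of each cell line and in the 4 of each SETD2 status within it. Leaving out groups with equal counts gave 48 groups (31 of 4 libraries and 17 of 8). For values without ties, chance marks about 1 in 20 such groups. With counts as small as these, in groups of 4 a single library that differs by 1 peak from 3 equal ones is always marked. All marked groups below are of that kind, so they cannot be judged against that rate. ARNT2 had 0 peaks in 786-O SETD2KO-1R replicate 2, where the other 3 SETD2-expressing libraries of 786-O had 1. EGLN1 had 1 peak in RPTEC SETD2KO-1 replicate 1, where the other 3 SETD2KO libraries of RPTEC had 2. EGLN3 had 1 peak in RPTEC SETD2KO-1 replicate 2 and 1 in RPTEC WT replicate 2, where the other 3 libraries of the same SETD2 status had none.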

How the results depend on the processing

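Counts of members called were 0 between cell lines by peaks per gene and 1 (ARNT2) per 10000 peaks of the list or 1 (EGLN3) by covered base pairs, where 7.02% and 11.4% of all genes were called. By rank of the best peak 1 was called, and 0 when every list was cut to the shortest list's number of peaks (EGLN3 43.3 points) or to the upper 50% of each list (46.4). With each library left out in turn the counts ranged from 0 to 1 by peaks and from 0 to 2 by rank, and complete splits of member regions by SETD2 status from 0 to 1. The split regions appeared without 786-O SETD2KO-1 replicate 1, 786-O SETD2KO-1R replicate 2 or RPTEC SETD2KO-1 replicate 2. No other alternative called a member or region by SETD2 status, or a region between cell lines. The cause of these changes was not tested. With a replicate block in the exact permutation test, the rank call of EGLN3 was lost (49.4 points, adjusted p = 0.0586), that of CITED2 was made (20.5 points, adjusted p = 0.0498), the count by rank stayed at 1, and no other call changed.

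Directions turned only for differences that did not pass. Between cell lines these were EGLN2 (-0.0971) and CITED2 (-0.0366) per 10000 peaks, CITED2 (-0.25) with summits, EPAS1 (2) in WT alone, and by rank HIF1A (6.91) and ARNT (1.16) in the upper 50% and CITED2 (-2.70) with summits. Between SETD2KO and SETD2-expressing libraries of 786-O they were HIF1AN (-0.25) in lists of equal number and with SETD2KO-2 alone, and EGLN1 (0.25) with SETD2KO-2 alone. In RPTEC they were HIF1A (0.5) and EGLN2 (0.25) in the upper 50%, EPAS1 (-0.25) with summits and with SETD2KO-1 alone, and EGLN2 (0.5) against WT. Over both cell lines they were HIF1A in lists of equal number (0.125) and in the upper 50% (0.375), and EGLN2 in the upper 50% and against WT (0.25 each). With 1 library left out, ranges crossed 0 between cell lines by rank for ARNT (-10.4 to 1.37) and EGLN2 (-2.91 to 1.10) and by peaks for CITED2 (-0.0714 to 0.214), ARNT (-0.143 to 0.143) and EGLN1 (-0.214 to 0.214), where ARNT and EGLN1 stood at 0 with all libraries. By SETD2 status they crossed 0 in 786-O for HIF1AN (-0.0833 to 0.667) and, at 0 with all libraries, HIF1A and ARNT (-0.333 to 0.333 each) and CITED2 (-0.167 to 0.167), in RPTEC for EPAS1 (-0.333 to 0.667), EGLN2 (-1.17 to 0.167), CITED2 (-0.5 to 0.167) and, at 0 with all libraries, EGLN3 (-0.25 to 0.25), and over both for EGLN2 (-0.583 to 0.0833) and CITED2 (-0.25 to 0.0833). Leaving libraries out of the SETD2 contrasts in rank of HIF1AN and EGLN3 was chosen after seeing the data.

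The depth of the lists is unknown, and counts of 0 to 8 per gene leave many ties. Each clone is 1 source.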
